A study of Mus musculus with 12 samples.

Results

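The translation initiation factor genes are the protein-coding mouse genes whose symbol begins with Eif and a digit from 1 to 6, with pseudogene symbols dropped. The rule used names only and no measured value, and it took 54 of the 27504 genes of the count matrix. Of these, 53 passed the filter on low counts and were tested. The remaining member, Eif4ebp3, a repressor of the cap-binding protein eIF4E, had 8 and 6 counts in AngII libraries 1 and 6 and was listed at 0 in the other 10. RNA was measured in hearts of wild type C57BL/6 mice at postnatal day 45, in 12 libraries. The AngII arm held a cardiac hypertrophy model induced by angiotensin II, a hormone that raises blood pressure and drives growth of heart muscle, and the sham arm held operated controls without it. Within each arm, mice were given vehicle, 5 or 50 mg/kg/day of gastrodin, a glucoside from the rhizome of Gastrodia elata, through the stomach for 7 days, with 2 libraries per group. The AngII libraries are numbered 1 and 2 (vehicle), 3 and 4 (5 mg) and 5 and 6 (50 mg), and the sham libraries 7 and 8 (vehicle), 9 and 10 (5 mg) and 11 and 12 (50 mg). Whether the libraries are from separate animals is not in the labels; the p-values thus cover the spread among these libraries, which may be technical. Sex is not given in the labels.

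Translation of most mRNAs begins when eIF2, bound to GTP, brings the initiator tRNA to the small ribosomal subunit, which carries eIF1, eIF1A, eIF3 and eIF5, while eIF4E, eIF4G and eIF4A gather at the mRNA cap and unwind the leader. The exchange factor eIF2B recharges eIF2 with GTP, and 4 kinases slow this step under stress by phosphorylating the alpha subunit of eIF2. The 4E-BP repressors hold eIF4E until the growth kinase mTORC1 phosphorylates them. Growth of the heart muscle cell depends on protein synthesis, and several of these factors are known points of its control. None of these data measure protein or phosphorylation.

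Total counts were 72.1 to 78.6 M in AngII libraries and 63.5 to 78.0 M in sham libraries, but most fell on mitochondrially encoded genes and their nuclear copies. The counts on other genes, ribosomal RNA left out, are called nuclear here. They made up 7.49 to 20.3% of the total in AngII (median 11.8%) and 6.34 to 10.4% in sham (median 7.87%), and AngII libraries 1, 3 and 6 lay above every sham library. Sham library 12 stood apart with 10.8% of its counts on ribosomal RNA. The nuclear-retained RNAs Malat1, Neat1 and Meg3 were higher in AngII (3 of 4 on the list called). Of 7 cardiomyocyte markers, 3 were called higher and 1 lower. Averaged over the 3 doses, the log2 fold changes were 1.34 for Myh6, 1.12 for Ryr2, 0.92 for Tnni3 and -0.72 for Actc1. The other 3, Tnnt2 (0.01), Myl2 (0.24) and Pln (-0.30), were not called. The same test called 4 of 5 smooth muscle, 3 of 5 endothelial and 5 of 5 red cell genes higher, and 4 of 5 fibroblast and 2 of 5 macrophage genes lower. Summed fibroblast markers were 39.4 to 72.4 CPM in AngII and 53.1 to 184 CPM in sham, and none of the 4 hepatocyte genes was called. In whole hearts, fewer cells of a type and less RNA per cell cannot be told apart. The part that nuclear share and cell makeup have in the differences given here was not tested beyond the fits named with them.

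Levels between genes were compared on the authors' TPM, which are per length. Eif1, which guards start-codon choice, was the most abundant member at 38.2 ± 9.21 TPM (mean ± SD, n = 12). It was followed by the eIF3 subunit gene Eif3h (27.9 ± 5.54 TPM), Eif5a (25.4 ± 4.36 TPM), whose product keeps peptide bonds forming at difficult residues, and the eIF3 subunit gene Eif3k (18.9 ± 7.27 TPM). The spread of each overlapped that of the next. At the other end stood Eif5a2 (0.0752 ± 0.0624 TPM), a paralog of Eif5a, and 3 of the 4 kinases, Eif2ak3, Eif2ak4 and Eif2ak2, at 0.248, 0.475 and 0.506 TPM. Members of the same complex differed in level. Eif2s2, the beta subunit of eIF2, averaged 3.27 ± 0.511 TPM, and the alpha subunit gene Eif2s1 1.19 ± 0.165 TPM. The summed TPM of the members was 335 to 474 in AngII libraries 1, 3 and 6, 256 to 272 in the other 3 AngII libraries and 236 to 380.2 in sham, and the first of these have the highest nuclear shares, so levels between arms are given below in CPM scaled by TMM.

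**Figure D1:**
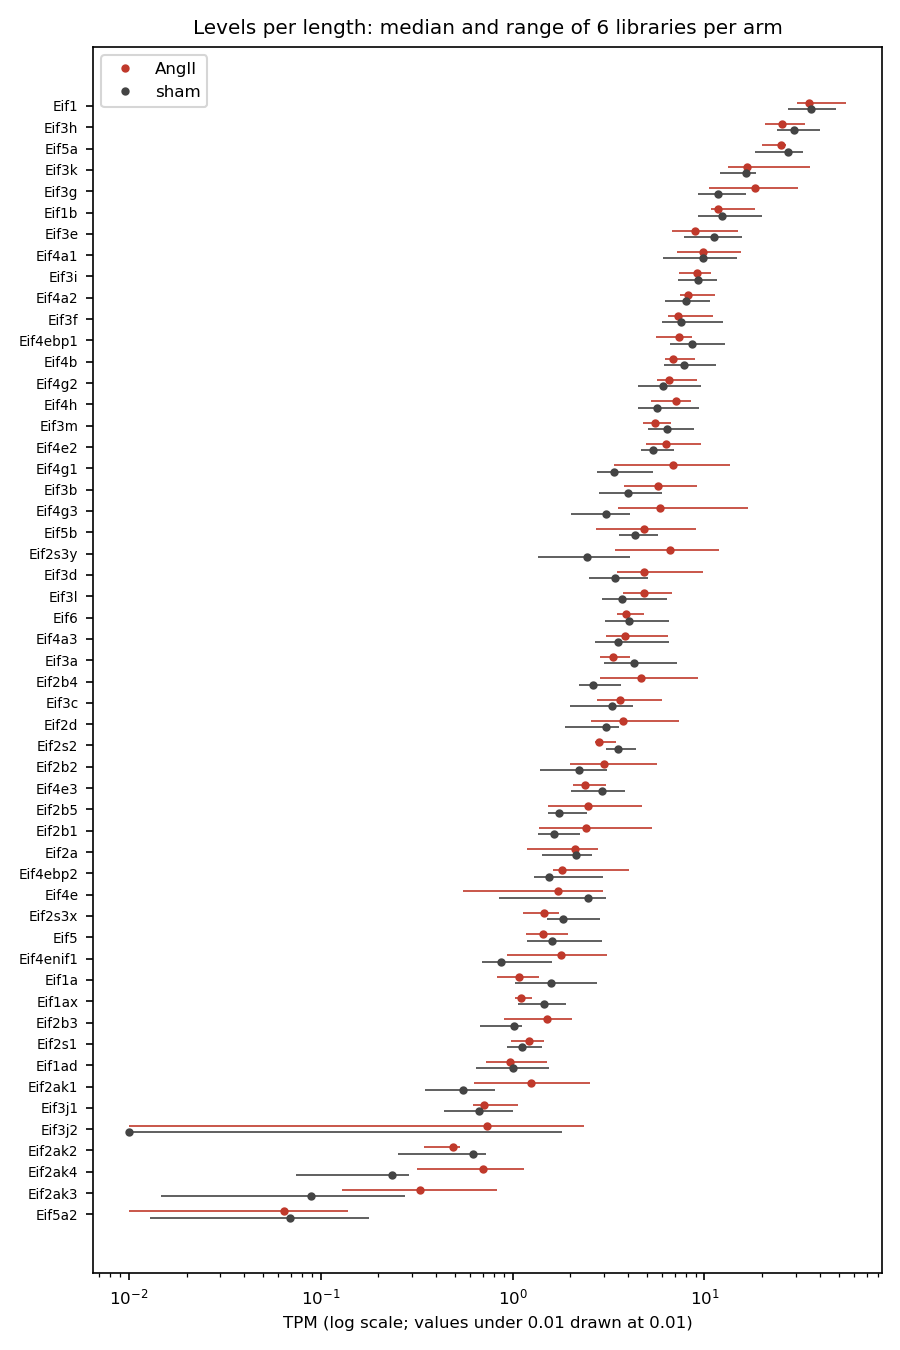
Level per length of the 53 members with a TPM value, on a log axis in TPM, in order of the mean over all 12 libraries; points are the median and lines the range of the 6 AngII (red) and 6 sham (grey) libraries. Eif1 leads and Eif5a2 and the kinases Eif2ak3, Eif2ak4 and Eif2ak2 come last, with Eif3j2 listed at 0 in several libraries.

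AngII against sham, averaged over the 3 gastrodin doses, asks what the hypertrophy model changed. In AngII hearts 17 members fell, 2 rose and 34 were not called, by the quasi-likelihood test of edgeR, adjusted by Benjamini-Hochberg over all 16723 genes tested. Called members made up 35.8% of the 53, beside 20.9% of all genes tested. Lower calls took 7.53% and higher calls 13.4% of all genes tested, and the median log2 fold change was -0.47 over the members and 0.10 over all genes. The median of all genes turned to -0.04 with the GC trend removed, -0.02 with at least 1 CPM in 6 libraries and -0.04 without AngII libraries 1, 3 and 6, and the members' median stayed negative in those fits. The sign was negative in 42 of 53 members. Together the 54 genes took 0.475 to 0.752% of the nuclear counts in AngII and 0.779 to 0.844% in sham, so the arms did not overlap. Within AngII the share was lowest in libraries 6, 3 and 1 (0.475, 0.485 and 0.521%), which had the highest nuclear shares, and highest in library 4 (0.752%), which had the lowest. For 15 of the 17 members that fell, libraries 1, 3 and 6 were the 3 lowest of the AngII arm, and library 4 was the highest for 13.

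**Figure D2:**
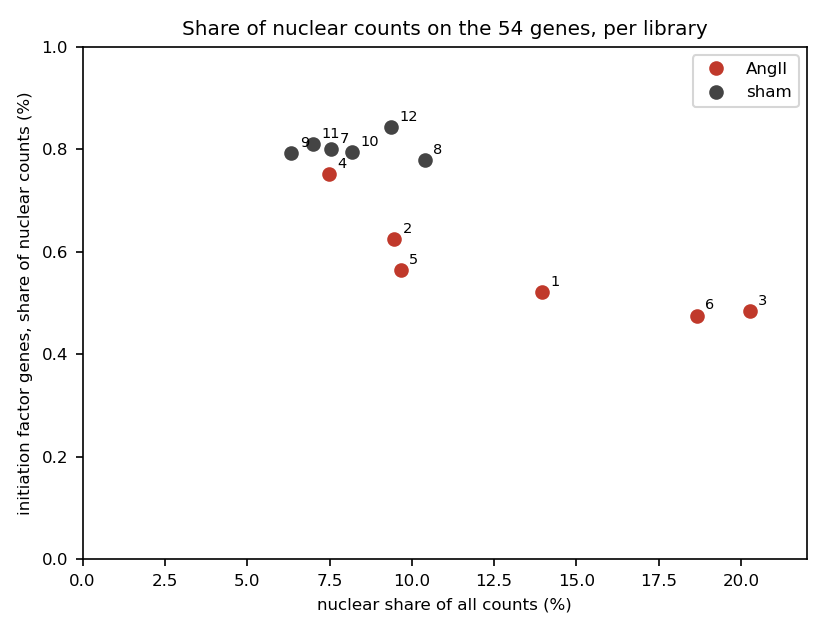
Share of nuclear counts taken by the 54 initiation factor genes (percent, y axis) against the nuclear share of all counts (percent, x axis) in each numbered library, AngII red and sham grey. The 6 sham libraries lie at 0.779 to 0.844% and the 6 AngII libraries at 0.475 to 0.752%, lowest where the nuclear share is highest.

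The count of 19 called members changed with the libraries used, and so did the count over all genes. With AngII libraries 1, 3 and 6 left out, so that nuclear shares overlapped and each AngII group kept 1 library, 2 members were still called (3.77%, beside 3.88% of 16944 genes tested), Eif3a (log2 fold change -0.70 ± 0.17, adjusted p = 0.0417) and Eif4e (-1.26 ± 0.31, adjusted p = 0.0419), both by edgeR. With the nuclear share as a covariate in edgeR, 0 members and 2.01% of all genes were called, and the median was -0.24 over the members and 0.03 over all genes; both fits were added after seeing the data. With that covariate the log2 fold change was -1.33 ± 0.35 for Eif4e (adjusted p = 0.0757), -0.70 ± 0.18 for Eif3a (adjusted p = 0.0773) and 1.05 ± 0.30 for Eif2ak4 (adjusted p = 0.0965, edgeR). Without library 4 alone 36 members were called (67.9%, beside 28.3% of all genes), and without library 4 and sham library 12 together 31 (58.5%, beside 24.3%). Without each of the other libraries in turn, sham libraries among them, 6 to 19 members were called (11.3 to 35.8%), beside 9.74 to 18.5% of all genes. On the TPM scale limma called 2 members, Eif2ak4 and Eif2s3y, both higher (3.77%, beside 8.78% of all genes). The members' median there was 0.12, of the opposite sign, and still below the 0.22 over all genes.

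**Figure D3:**
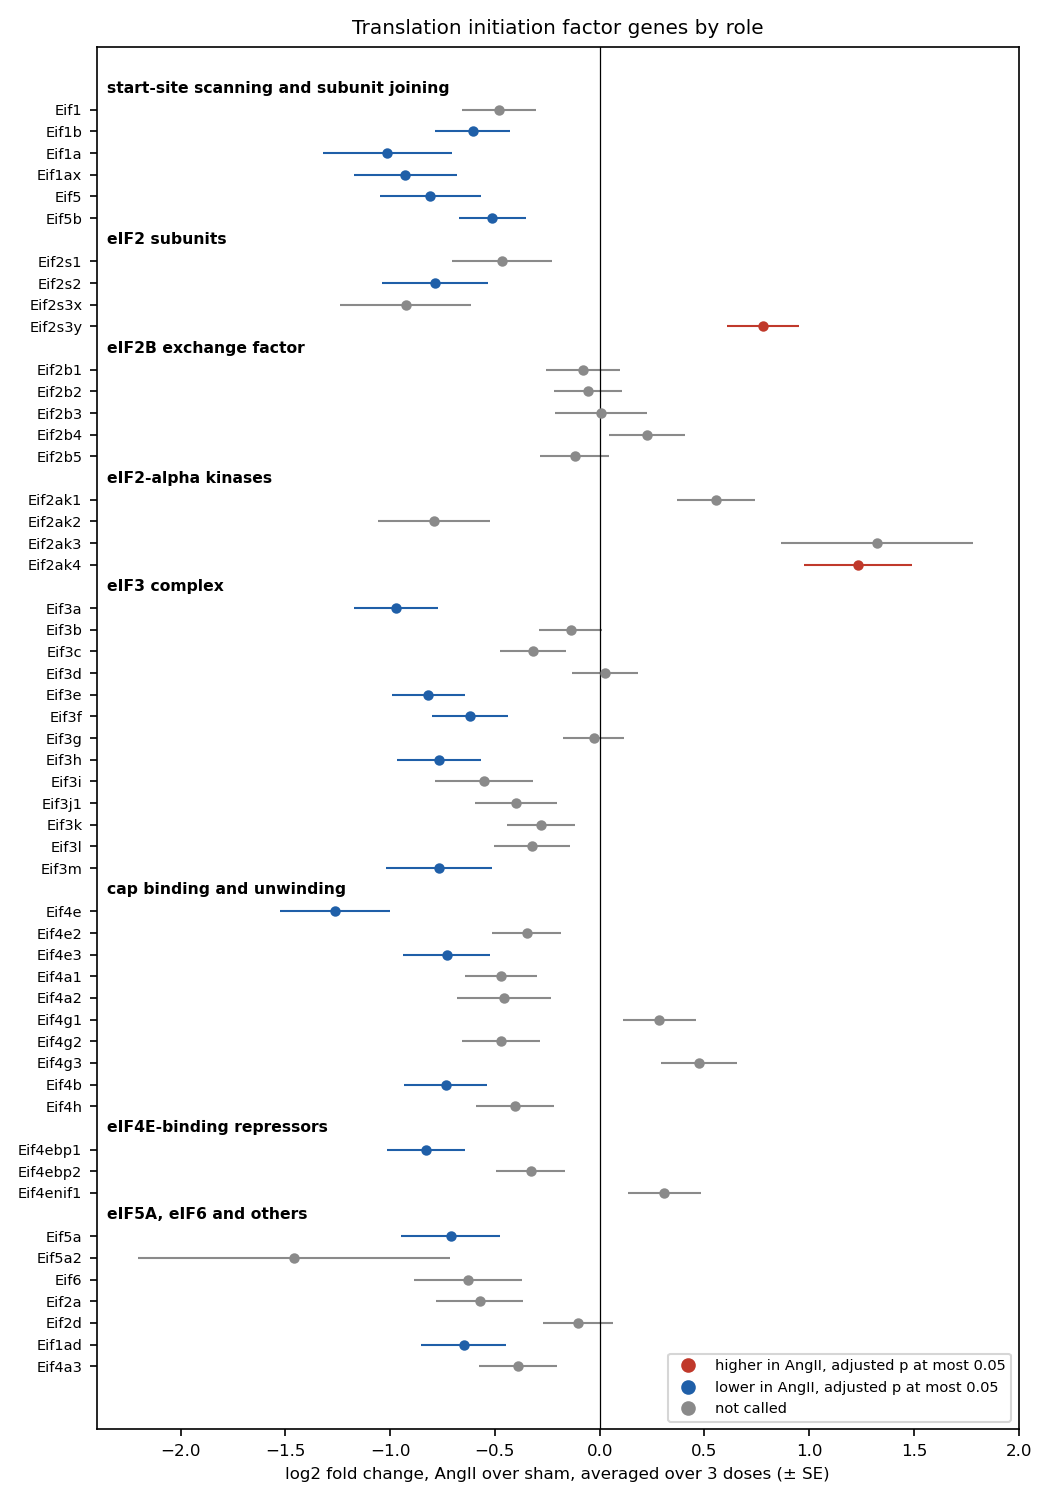
Log2 fold change of AngII over sham averaged over the 3 doses (x axis, points; lines are ± 1 SE) for the members grouped by role, blue where lower and red where higher at an adjusted p of at most 0.05, grey where not called. All 6 genes of start-site scanning and subunit joining lie left of 0 and the 5 eIF2B genes lie near it; Eif3j2 (5.92 ± 1.93, not called) is off the axis and not drawn, and Eif4ebp3 was not tested.

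Among the genes for start-site scanning and subunit joining, 5 of 6 fell in AngII and the median log2 fold change was -0.71. Eif1ax, an X-linked gene for eIF1A, which helps the small subunit scan, had 3.29, 4.88 and 8.84 CPM in AngII and 8.24, 9.81 and 11.3 CPM in sham (lowest, median and highest of 6). The arms overlapped only through AngII library 4. Its log2 fold change was -0.93 ± 0.25 (SE; adjusted p = 0.0198, edgeR), and that of the autosomal eIF1A gene Eif1a was -1.01 ± 0.31 (adjusted p = 0.035, edgeR). Eif5, which makes eIF2 hydrolyse its GTP once the start codon is found, fell by 0.81 on the log2 scale, and Eif1b, a paralog of Eif1, by 0.61. Eif5b, the GTPase that joins the subunits, had 27.3, 29.8 and 36.9 CPM in AngII and 38.0, 44.8 and 54.8 CPM in sham. No AngII library reached the lowest sham library, and the log2 fold change was -0.51 ± 0.16 (adjusted p = 0.0395, edgeR). That call held in 2 of the 12 fits with a library left out, and on TPM the log2 difference was 0.0909, of the other sign. Eif5b shares 1643 exon bases with Rev1 on the opposite strand, and since the strand setting is not known their reads cannot be told apart. Eif1 itself was not called at -0.48 ± 0.18 (adjusted p = 0.0683, edgeR), and 23.5% of its 31-base words also lie in Emd.

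Of the 4 genes for eIF2 subunits, 1 rose and 1 fell. Eif2s2, the beta subunit, fell by 0.79 on the log2 scale (SE 0.25, adjusted p = 0.0429, edgeR), and the alpha subunit gene Eif2s1, whose product the stress kinases phosphorylate, stood at -0.47 ± 0.24 and was not called. The gamma subunit, which binds GTP and the tRNA, is encoded on both sex chromosomes, and the 2 genes had opposite signs. Eif2s3y (chromosome Y, 1010543 to 1028847, GRCm38) had 8.28, 9.28 and 12.6 CPM in AngII and 3.09, 7.07 and 7.95 CPM in sham. The lowest AngII library lay above the highest sham library. Its log2 fold change was 0.78 ± 0.17 (adjusted p = 0.00918, edgeR). By dose it was 0.46 at vehicle and 0.43 at 5 mg, neither called, and 1.46 at 50 mg, where the sham pair was low. Eif2s3x (chromosome X, 94188707 to 94212862) had 2.07, 4.52 and 8.73 CPM in AngII and 7.86, 9.24 and 11.2 CPM in sham. AngII library 4 was the one that reached into the sham range, and the log2 fold change of -0.93 ± 0.31 just missed the threshold (adjusted p = 0.0517, edgeR). A share of TPM between the pair does not depend on how libraries are scaled. Eif2s3y took 66.4 to 91.3% of their joint TPM in AngII (median 80.3%) and 37.0 to 66.8% in sham (median 57.0%), with a narrow overlap between AngII library 4 and sham library 10. Within AngII it took 91.33, 87.95 and 85.36% in libraries 3, 1 and 6, which had the highest nuclear shares. In libraries 5, 2 and 4 it took 75.18, 71.78 and 66.38%. The part that nuclear share has in this share was not tested. Eif2s3y was detected in every library, and Xist had at most 0.0878 CPM in any. The other Y-linked genes Ddx3y, Kdm5d and Uty were not called (log2 fold changes 0.21, 0.28 and 0.56). Eif2s3x shares 36.5% of its 31-base words with the pseudogene Gm2223.

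None of the 5 eIF2B genes, Eif2b1 to Eif2b5, was called by edgeR, and their log2 fold changes ran between -0.12 and 0.23. Eif2b5, the catalytic epsilon subunit, had 4.06, 5.52 and 6.16 CPM in AngII and 4.79, 5.92 and 7.54 CPM in sham. The arms overlapped over most of their range, at a log2 fold change of -0.12 ± 0.17 (adjusted p = 0.633, edgeR). DESeq2's Wald test called none of them either.

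Of the 4 kinases of eIF2 alpha, 1 rose, 3 had positive signs and 1 a negative sign. Eif2ak4 (GCN2, the sensor of uncharged tRNA; chromosome 2, 118388618 to 118475234) had 2.27, 3.10 and 3.61 CPM in AngII and 0.642, 1.26 and 2.21 CPM in sham. The arms did not overlap, and the log2 fold change was 1.23 ± 0.26 (adjusted p = 0.00741, edgeR). Eif2ak1 (HRI, the haem-regulated kinase) had 3.76, 4.39 and 5.49 CPM in AngII and 2.50, 3.13 and 3.51 CPM in sham. Its arms did not overlap either, but the log2 fold change of 0.56 ± 0.19 missed the threshold (adjusted p = 0.0524, edgeR). Eif2ak3 (PERK, the endoplasmic reticulum sensor) had 0.607, 1.28 and 1.88 CPM in AngII and 0.111, 0.441 and 1.24 CPM in sham, at 1.32 ± 0.46 (adjusted p = 0.0557, edgeR). Eif2ak2 (PKR, the sensor of double-stranded RNA) had the opposite sign at -0.79 ± 0.27 (adjusted p = 0.0516, edgeR). Eif2ak1 shares exon bases with Aimp2 on the opposite strand.

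In the eIF3 complex, the scaffold that holds the small subunit and the mRNA, 5 of 14 genes fell and none rose. Eif3a, its largest subunit (chromosome 19, 60761117 to 60790658), had 10.5, 14.6 and 21.5 CPM in AngII and 25.6, 29.7 and 37.0 CPM in sham. The arms did not overlap, and the log2 fold change was -0.97 ± 0.20 (adjusted p = 0.00702, edgeR), the smallest adjusted p of any member. Eif3e (chromosome 15, 43250058 to 43282719) had 9.99, 11.4 and 18.3 CPM in AngII and 19.6, 22.4 and 24.3 CPM in sham. Again no AngII library reached the sham range, at -0.82 ± 0.17 (adjusted p = 0.00779, edgeR). Eif3h, Eif3m and Eif3f fell by 0.77, 0.77 and 0.62 on the log2 scale. The other 9 were not called. Of all 14, 12 had negative and 2 positive signs, with a median log2 fold change of -0.36. Some of those not called had lower medians in AngII, such as Eif3i (8.33 CPM, and 13.4 CPM in sham) and Eif3c (10.8 CPM, and 14.5 CPM in sham). Others were close to 0. Eif3b, a scaffold of the complex, stood at -0.14 ± 0.15, the mRNA cap-binding subunit gene Eif3d at 0.03 ± 0.16 and Eif3g at -0.03 ± 0.15. Eif3j2, a chromosome 18 copy that shares 94.0% of its 31-base words with Eif3j1, was listed at 0 in 7 libraries and had 0.834 to 5.13 CPM in the other 5, so its fitted fold change is not read here.

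At the cap, 3 of 10 genes fell and none rose. Eif4e, the cap-binding protein (chromosome 3, 138526179 to 138559696), had 2.80, 6.13 and 14.9 CPM in AngII and 7.07, 14.8 and 21.0 CPM in sham. The arms overlapped. The log2 fold change of -1.26 ± 0.26 (adjusted p = 0.00713, edgeR) was the most negative among called members. The doses differed in this. At vehicle the libraries overlapped, with 9.43 and 14.9 CPM in AngII and 21.0 and 10.9 CPM in sham. They overlapped at 5 mg too, with 7.42 and 4.84 CPM in AngII and 7.07 and 18.6 CPM in sham. At 50 mg they lay apart, with 3.05 and 2.80 CPM in AngII and 15.5 and 14.1 CPM in sham. Raw Eif4e counts, not scaled for depth, fell into 2 ranges. They were 269, 213 and 352 in AngII libraries 4, 5 and 6 and 319 in sham library 9, and 843 to 1179 in the other 8 libraries. On CPM these ranges met, with sham library 9 at 7.07 CPM and AngII library 3 at 7.42 CPM. The 2 libraries had 4.49 and 15.2 M nuclear counts. Eif4b, which stimulates the helicase eIF4A, had 16.9, 23.8 and 35.7 CPM in AngII and 37.6, 41.0 and 44.0 CPM in sham. The arms did not overlap, at -0.73 ± 0.20 (adjusted p = 0.022, edgeR), and Eif4e3, a cap-binding paralog, had the same log2 fold change of -0.73. The helicase genes Eif4a1 and Eif4a2 stood at -0.47 ± 0.17 and -0.46 ± 0.23, and the scaffold genes Eif4g1, Eif4g3 and Eif4g2 at 0.29 ± 0.17, 0.48 ± 0.18 and -0.47 ± 0.18, none of them called. Eif4g2 codes for DAP5, a relative of eIF4G without the eIF4E-binding part, and had the sign opposite to the other 2.

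Among the repressors of eIF4E, Eif4ebp1 fell. It had 8.57, 12.3 and 17.0 CPM in AngII and 16.1, 21.9 and 28.2 CPM in sham. AngII library 4 was the sole one to reach the sham range, and the log2 fold change was -0.83 ± 0.19 (adjusted p = 0.0102, edgeR). Eif4ebp2 (-0.33 ± 0.16) and Eif4enif1 (0.31 ± 0.17), the gene of an eIF4E transporter, were not called. Per TPM of Eif4e there were 2.32 to 10.2 TPM of Eif4ebp1 in AngII and 2.85 to 7.76 TPM in sham, and the ratio was 8.79, 10.2 and 9.32 in AngII libraries 4, 5 and 6, above every sham library.

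Outside these complexes, Eif5a fell by 0.71 (SE 0.24, adjusted p = 0.0494, edgeR) and Eif1ad, an eIF1A-like gene that overlaps Banf1 on the opposite strand, by 0.65 on the log2 scale. Eif6, which keeps the ribosomal subunits apart, stood at -0.63 ± 0.26 (adjusted p = 0.0979, edgeR) and Eif4a3, a helicase of the exon junction complex, at -0.39 ± 0.19. Eif2d and Eif2a, which deliver tRNA without eIF2, stood at -0.10 ± 0.17 and -0.57 ± 0.21.

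**Figure D4:**
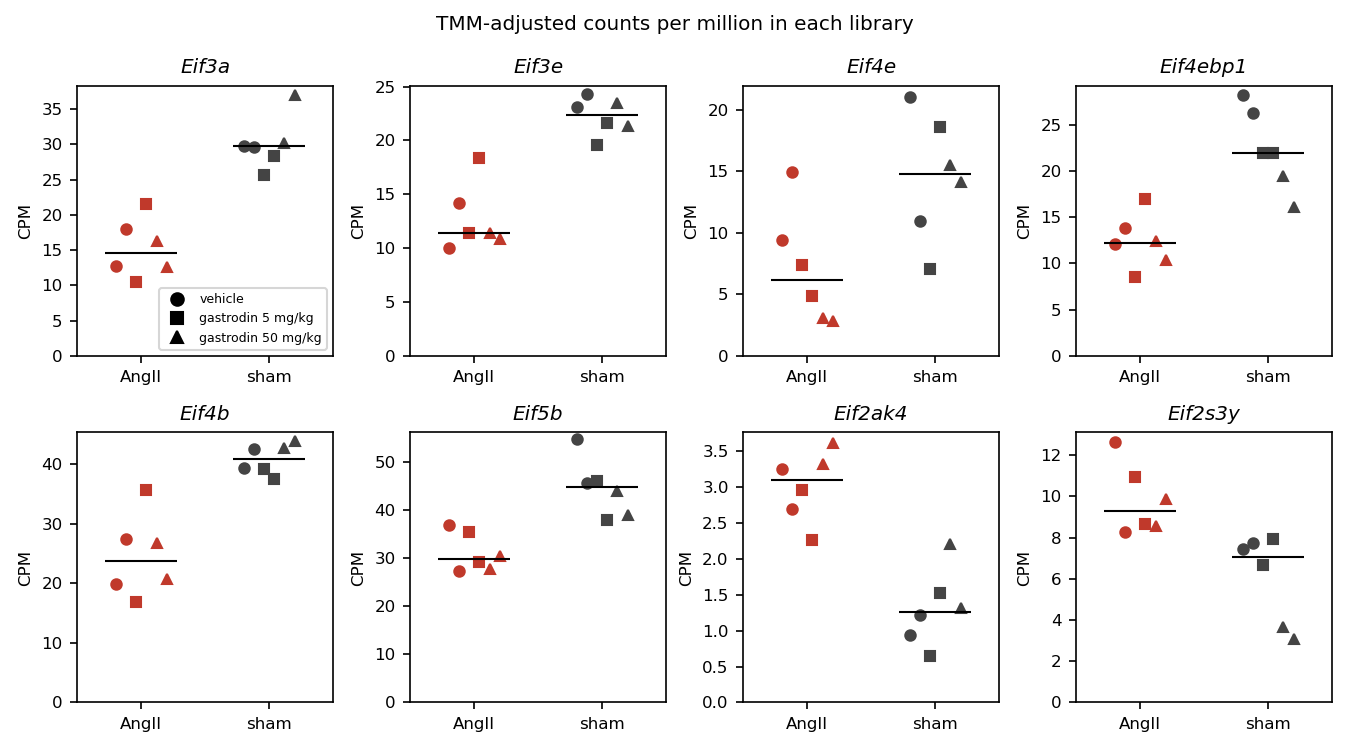
TMM-adjusted CPM of 8 members in each library, AngII (red) left of sham (grey), with the median of 6 libraries as a line and the gastrodin dose as the marker shape. The arms do not overlap for Eif3a, Eif3e, Eif4b, Eif5b, Eif2ak4 and Eif2s3y, and overlap for Eif4e and Eif4ebp1.

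Over all members, the 6 libraries of each arm did not overlap for 7 of 53 (13.2%), beside 7.36% of all genes tested. AngII was lower for 4 of them (Eif3a, Eif3e, Eif4b and Eif5b, 7.55%, beside 2.92% of all genes) and higher for 3 (Eif2ak4, Eif2s3y and Eif2ak1, 5.66%, beside 4.44%). Of the 19 calls, 6 held in all 12 fits with a library left out. They were Eif3a, Eif3e, Eif4e and Eif4ebp1, which fell, and Eif2ak4 and Eif2s3y, which rose. How many of all called genes held in the same way was not counted, so this number has no background beside it. Members with GC-rich transcripts had the higher log2 fold changes (Spearman's rho 0.43 across 53 genes, which share libraries and are not replicates; 0.18 across 16660 nuclear genes). The median transcript GC was 44.5% in the 17 that fell and 50.0% in the 34 not called. The 2 that rose went against this order, with a median of 43.1%. With each library's trend on GC removed, 21 members were called, 16 of them among the 19.

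Within single doses fewer members passed. In vehicle-treated mice, AngII against sham called 0 of 53 members by edgeR (0.0598% of all genes were called), with 13 members (24.5%) and 16.5% of all genes at an unadjusted p under 0.05. DESeq2 called 3 members (5.66%) and 4.29% of all genes. The smallest p values belonged to Eif4ebp1 (-1.07 ± 0.33, adjusted p = 0.172, edgeR), Eif2ak4 (1.46 ± 0.45, adjusted p = 0.18) and Eif3e (-0.97 ± 0.30, adjusted p = 0.181). At 5 mg edgeR called 0 members and 0% of all genes, with 10 members (18.9%) and 12% of all genes at an unadjusted p under 0.05. DESeq2 called 0 members and 1.66% of all genes. The smallest p values there were those of Eif2ak3 (2.43 ± 0.83), Eif5a2 (-4.25 ± 1.46) and Eif2ak4 (1.26 ± 0.45). At 50 mg 2 members were called, beside 5.42% of all genes tested (4.04% higher and 1.38% lower). Eif4e fell, with 3.05 and 2.80 CPM in AngII 50 mg and 15.5 and 14.1 CPM in sham 50 mg (-2.34 ± 0.47, adjusted p = 0.0179, edgeR). Eif2s3y rose, with 8.56 and 9.89 CPM in AngII 50 mg and 3.64 and 3.09 CPM in sham 50 mg (1.46 ± 0.30, adjusted p = 0.0204, edgeR). Both calls also held with the nuclear share as a covariate (adjusted p = 0.0379 for Eif4e and 0.0494 for Eif2s3y, edgeR). Both were lost on TPM (-1.001 ± 0.478, adjusted p = 0.365 for Eif4e and 1.512 ± 0.553, adjusted p = 0.276 for Eif2s3y, limma). Of the 12 fits with a library left out, 8 kept the call of Eif4e and 9 that of Eif2s3y, and without library 6, 11 or 12 neither was called.

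Gastrodin against vehicle asks whether the compound changed these genes within an arm. No member was called in any of the 4 contrasts by edgeR. In AngII, 5 mg called 0 members (0.00598% of all genes), with 2 members (3.77%) and 1.74% of all genes at an unadjusted p under 0.05. At 50 mg it was 0 (0.012% of all genes), with 1 member (1.89%) and 1.88% of all genes at an unadjusted p under 0.05. In sham, 5 mg called 0 (0.0179% of all genes), with 0 members and 4.12% of all genes at an unadjusted p under 0.05. At 50 mg it was 0 (0.149% of all genes), with 3 members (5.66%) and 9.22% of all genes at an unadjusted p under 0.05. DESeq2 called 0 members at 5 mg in either arm (0.0718% of all genes in AngII and 0.191% in sham) and 1 at 50 mg in each (0.0897% and 1.68% of all genes in AngII and sham). Both doses of an arm share its vehicle libraries. Eif4e in AngII had 9.43 and 14.9 CPM at vehicle, 7.42 and 4.84 CPM at 5 mg and 3.05 and 2.80 CPM at 50 mg. The 3 pairs did not overlap. For 50 mg against vehicle the log2 fold change was -2.06 ± 0.47, with an unadjusted p of 0.000693 and an adjusted p of 1 (edgeR), and for 5 mg it was -0.99 ± 0.45. In sham, Eif4e had 21.0 and 10.9 CPM at vehicle, 7.07 and 18.6 CPM at 5 mg and 15.5 and 14.1 CPM at 50 mg, and the pairs overlapped. The difference between the arms, tested as the interaction at 50 mg, was -1.95 ± 0.64 (adjusted p = 0.606, edgeR).

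Eif2s3y in sham had 7.44 and 7.76 CPM at vehicle, 6.69 and 7.95 CPM at 5 mg and 3.64 and 3.09 CPM at 50 mg. The 50 mg pair lay below the other 4 sham libraries, at -1.18 ± 0.30 against vehicle (adjusted p = 0.24, edgeR). Eif2s3x, the X-linked partner, had 10.03 and 8.45 CPM at vehicle, 11.2 and 7.86 CPM at 5 mg and 8.07 and 10.5 CPM at 50 mg in the same libraries, which overlapped. The interaction called 0 members at 5 mg (0.00598% of all genes) and 0 at 50 mg (0.0299% of all genes), by edgeR. At an unadjusted p under 0.05 there were 1 member (1.89%) and 3.07% of all genes at 5 mg, and 3 members (5.66%) and 6.93% of all genes at 50 mg. DESeq2 called 0 members at either dose, beside 0.0837% of all genes at 5 mg and 0.682% at 50 mg.

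**Figure D5:**
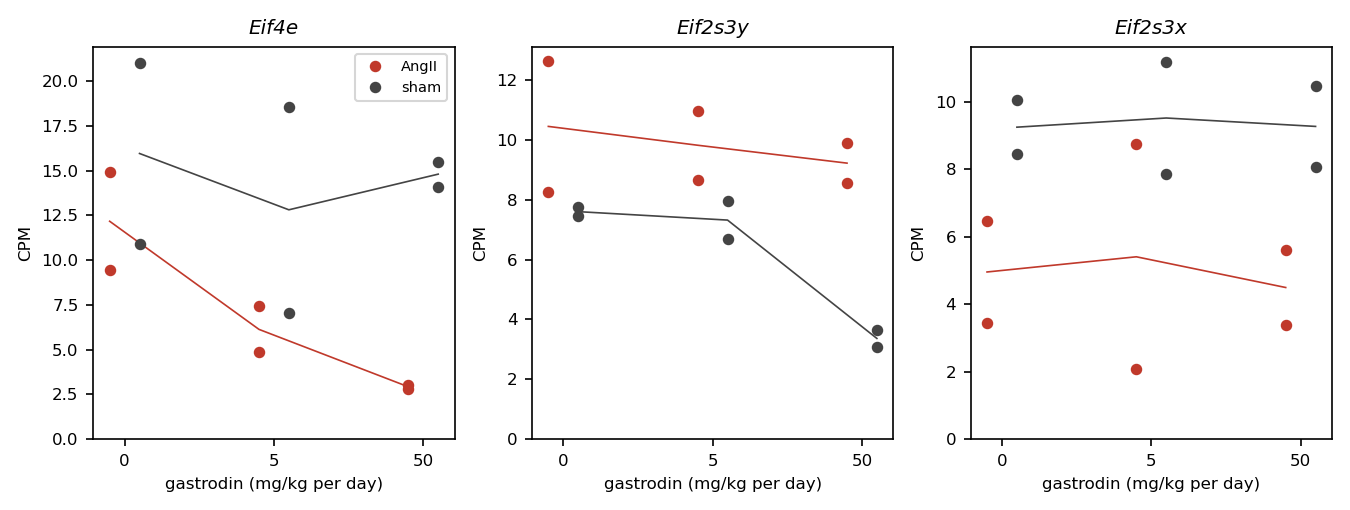
TMM-adjusted CPM of Eif4e, Eif2s3y and Eif2s3x against gastrodin dose (0, 5 and 50 mg/kg per day, evenly spaced), with AngII in red and sham in grey; points are libraries and lines join the means of 2. Eif4e in AngII runs down to 3.05 and 2.80 CPM at 50 mg, and Eif2s3y in sham to 3.64 and 3.09 CPM.

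The windows around the transcription start of 4 members are shown, since Eif4e and Eif3a were the members called without AngII libraries 1, 3 and 6, and the gamma subunit genes had opposite signs. Each runs from 250 bases before to 50 after the start, 5′ to 3′ on the gene's strand, from RefSeq on GRCm38.p6. Capitals mark CACGTG, the palindromic E-box bound by factors such as MYC and USF, where a window holds it. The windows are chr3:138527018-138527317 (plus strand, 1 of the annotated starts of Eif4e), chr19:60790644-60790943 (minus), chrY:1010345-1010644 (plus) and chrX:94212602-94212901 (minus).
Eif4e: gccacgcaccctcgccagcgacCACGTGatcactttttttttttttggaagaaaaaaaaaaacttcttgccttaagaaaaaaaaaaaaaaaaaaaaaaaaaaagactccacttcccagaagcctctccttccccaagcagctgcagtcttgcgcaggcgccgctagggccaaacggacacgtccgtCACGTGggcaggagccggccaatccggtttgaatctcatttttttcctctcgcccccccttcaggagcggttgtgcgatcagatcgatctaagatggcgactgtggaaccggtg
Eif3a: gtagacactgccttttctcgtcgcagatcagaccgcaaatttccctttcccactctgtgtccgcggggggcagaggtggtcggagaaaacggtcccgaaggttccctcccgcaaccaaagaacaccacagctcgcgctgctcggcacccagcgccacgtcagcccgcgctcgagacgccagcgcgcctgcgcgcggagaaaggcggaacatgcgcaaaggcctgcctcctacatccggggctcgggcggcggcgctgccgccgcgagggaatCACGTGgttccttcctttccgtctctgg
Eif2s3y: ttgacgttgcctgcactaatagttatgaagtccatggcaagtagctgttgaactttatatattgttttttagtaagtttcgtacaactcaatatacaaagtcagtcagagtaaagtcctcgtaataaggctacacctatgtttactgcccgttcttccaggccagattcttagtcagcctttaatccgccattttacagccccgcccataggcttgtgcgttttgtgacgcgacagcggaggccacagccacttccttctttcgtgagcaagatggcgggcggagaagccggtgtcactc
Eif2s3x: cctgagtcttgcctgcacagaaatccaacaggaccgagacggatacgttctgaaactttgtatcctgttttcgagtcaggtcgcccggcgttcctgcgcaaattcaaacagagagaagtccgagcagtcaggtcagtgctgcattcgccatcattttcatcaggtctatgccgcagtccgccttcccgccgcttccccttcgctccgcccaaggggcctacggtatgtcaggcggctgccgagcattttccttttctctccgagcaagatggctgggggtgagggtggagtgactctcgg
In Eif4e the motif begins 228 and 64 bases before the start, and in Eif3a at base 23 after it, while the windows of Eif2s3y and Eif2s3x hold none. For Eif4e the window with the motif is shown, and its first listed window, which holds none, is not. For the other genes shown, the first listed window was taken. Of the 43 members with a window, 10 held CACGTG (23.3%), beside 8.09% of 27025 genes with a window and 11.3% of the 11626 that were tested. Among the 17 members that fell, 12 had a window and 5 of these held it: Eif4e, Eif3a, Eif3f, Eif1b and Eif5a. The others with it were Eif5a2, Eif4h, Eif3k, Eif4a1 and Eif4g1. A match of letters is a description, not a binding site. A run of at least 6 pyrimidines reaching within 5 bases of the start, searched as the letters C and T on the gene's strand, was found in 23.3% of the members and 25% of the tested genes.

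Partners of the initiation factors were taken from 5 lists of genes, with background shares of 13.4% higher and 7.53% lower among all genes in the same contrast. Among elongation factors 3 of 9 fell and 1 rose, with a median log2 fold change of -0.54. Eef1b2, Eef1a1 and Eef1g, parts of the eEF1 complex that brings tRNA to the ribosome, fell by 0.97, 1.12 and 0.62, and Eef2k, the kinase that inhibits eEF2, rose by 0.72. Of 7 termination and recycling genes, 1 fell, the release factor gene Etf1 (-0.89 ± 0.24). Of 16 cap and poly(A) partners, 3 fell and 1 rose. Pabpc1, the cytoplasmic poly(A)-binding protein, had 13.3, 17.9 and 27.1 CPM in AngII and 30.8, 32.7 and 41.6 CPM in sham. Its arms did not overlap, at -0.90 ± 0.18 (adjusted p = 0.00618, edgeR). Bzw1, a mimic of eIF5, fell by 0.87 and Paip2b, a repressor of the poly(A)-binding protein, by 0.97, while Larp1, a repressor of mRNAs for ribosomal proteins, rose by 0.88 on the log2 scale.

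On the mTORC1 list 6 of 21 genes rose and none fell, with a median of 0.34. The 4 with the smallest p were Tsc2 (1.30 ± 0.23) and Tsc1 (1.00 ± 0.27), which together restrain mTORC1, the kinase gene Mtor (1.05 ± 0.29) and the S6 kinase gene Rps6kb2 (1.29 ± 0.27). Tsc2 had 8.06, 19.4 and 24.7 CPM in AngII and 5.10, 7.15 and 9.22 CPM in sham, which overlapped (adjusted p = 0.00331, edgeR). On the list of the integrated stress response, the pathway downstream of the eIF2 kinases, 4 of 19 tested genes rose and 1 fell, with a median of -0.07. The 4 with the smallest p were Vldlr, a lipoprotein receptor gene (1.44 ± 0.17), Impact, an inhibitor of GCN2 (0.97 ± 0.21), Nupr1, a stress-induced nuclear protein gene (-0.89 ± 0.22), and Slc3a2, the heavy chain of an amino acid transporter (0.63 ± 0.18). Impact had 2.12, 3.31 and 4.07 CPM in AngII and 1.06, 1.69 and 1.93 CPM in sham, without overlap. Atf4, the transcription factor at the centre of the response, had 9.60, 12.3 and 16.8 CPM in AngII and 10.8, 11.9 and 19.3 CPM in sham, and the arms overlapped.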

How the data were processed

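Heart RNA was prepared with a TruSeq RNA kit and sequenced as paired reads on a NovaSeq instrument, per the labels' protocols. The authors deposited raw read counts per gene for 27504 genes, with no normalization, and TPM per library for 14271 genes, which within a gene and library follow the counts up to a constant. HISAT2 2.2.1, StringTie 2.1.3 and the genome GRCm38.p6 are named, per the submitters' processing notes; the counting program, its use of strand and what it did with multiply matched reads were not given in the sources used here. Reads on overlapping genes and near-identical copies are therefore uncertain. Per library, there were 63.5 to 78.6 M counts, of which 4.49 to 15.2 M were nuclear.

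Symbols and positions came from GENCODE M21 on GRCm38, and promoter windows from RefSeq on GRCm38.p6 (43 of 54 members matched). The filter filterByExpr of edgeR 4.0.16 (R 4.3.3) left 16723 genes, whose counts were TMM-scaled and modelled by 6 group means over 12 libraries (6 residual degrees of freedom, prior 6.93). The quasi-likelihood F-test was 2-sided, with Benjamini-Hochberg adjustment over all genes tested and a threshold of 0.05; the SE is the log2 fold change over the root of F. CPM divide each count by the TMM-adjusted library size in M. Nuclear copies of mitochondrial genes are those with at least 50% of their 31-base words in transcripts of the mitochondrially encoded genes, on either strand. Alternatives used DESeq2 1.42.0, limma 3.58.1 on log2(TPM + 1), and a lowess trend on GC content (span 0.3). The edgeR script was tested on simulated data.

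Members and lists were chosen with earlier results of these data known. All members may be named. By the rule set beforehand, values go to called members, a fixed set of 17 and, for contrasts with fewer than 5 calls, the 3 smallest p. Other members with values, such as Eif1, Eif2a, Eif2d, Eif3b, Eif3c, Eif3d, Eif3g, Eif3i, Eif4a3, Eif4enif1 and Eif4g3, were added outside that rule. Of each list up to 4 called genes with the smallest p are named, and other partner genes with values (Atf4) were chosen after their values were seen. Libraries of a group differed beyond counting noise, so none was counted as a duplicate.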

Additional observations from a re-analysis of the deposited data

Results flagged for a closer look

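Each member was examined in each arm for a library far from the other 5, and 3 of 106 pairs of member and arm were past the limit for 6 values; chance flags about 1 in 20. Eif4a3, a helicase of the exon junction complex, was high in sham library 12, at 9.83 CPM, with the next library at 7.14 CPM; the gap took 0.809 of the range. Eif3c, an eIF3 core subunit, was low in sham library 9, at 11.2 CPM, with the next at 14.3 CPM, a gap of 0.732. Eif4a1, the helicase, was high in AngII library 4, at 21.9 CPM, with the next at 15.8 CPM, a gap of 0.706. None of these members was called in the averaged comparison. Sham library 12 carried 10.8% ribosomal RNA, and AngII library 4 had the lowest nuclear share of its arm; their part in these values was not tested. No difference between arms in the response to gastrodin passed the threshold for a member.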

How the results depend on the processing

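The averaged count was 19 called members (35.8%, 20.9%). Brackets give the shares of members and of all genes tested, and those of the later fits stand with the averaged comparison above. The count was 18 with DESeq2 size factors (34%, 20.9%), 28 with DESeq2's Wald test (52.8%, 27.6%) and 22 without a filter (40.7%, 17.6%). It was 23 with at least 1 CPM in 6 libraries (45.1%, 34%) and 18 without mitochondrial and haemoglobin genes (34%, 21.3%). It was 16 with the share outside mitochondrial genes as a covariate (30.2%, 14.5%) and 21 with the GC trend removed (39.6%, 20.4%). It was 2 on TPM, 31 without libraries 4 and 12, 0 with the nuclear share as a covariate and 2 without AngII libraries 1, 3 and 6 (the last 2 chosen after seeing the data), and 6 to 36 with each library left out. The calls fell below 19 by over 1.5 times without library 1 (7), 3 (11), 6 (6), 7 (11), 8 (7), 9 (9), 11 (12) or 12 (9). The members' median kept its sign except on TPM (0.12). The median of all genes (0.10) moved to 0.29 without a filter and 0.22 on TPM, and was -0.04 with the GC trend removed, -0.02 with at least 1 CPM in 6 libraries and -0.04 without AngII libraries 1, 3 and 6. On TPM 21 of 53 members, all negative in edgeR, were positive; those followed under every alternative were Eif2b5 (0.35), Eif2s1 (0.0486), Eif4a1 (0.12), Eif4a2 (0.14), Eif4ebp2 (0.18), Eif4g2 (0.0945) and Eif5b (0.0909). TPM are not scaled by TMM; the cause of a change was not tested.

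AngII against sham in vehicle (0 members) gave 3 with DESeq2's Wald test (5.66%, beside 4.29% of all genes) and 1 without a filter (1.85%, beside 4.46%). At 5 mg (0) it gave 3 without a filter, 10 without libraries 4 and 12, and 0 to 13 with each library left out (13 without library 4). The 3 called at 5 mg without a filter were 5.56% of members, beside 2.66% of all genes. From the 0% of all genes called at 5 mg, that share rose too without library 4 and without libraries 4 and 12. At 50 mg (2, or 3.77%, beside 5.42% of all genes) AngII against sham gave 6 with DESeq2's Wald test (11.3%, beside 13.6%). It gave 5 without a filter (9.26%, beside 8.97%) and 4 with at least 1 CPM in 6 libraries (7.84%, beside 11.8%). The share outside mitochondrial genes as a covariate gave 6 (11.3%, beside 9.09%), and TPM gave 0 (beside 0.126%). Leaving out libraries, so that a group kept 1, changed the counts of members and of all genes in each of these contrasts. At 5 mg both counts rose without library 4. At 50 mg both fell without library 5, 6, 11 or 12 and rose without 3 or 4. For 50 mg against vehicle, DESeq2's Wald test gave 1 in each arm (1.89%, beside 0.0897% of all genes in AngII and 1.68% in sham). No filter also gave 1 in each (1.85%, beside 0.249% in AngII and 1.42% in sham). The interaction at 50 mg gave 2 without a filter (3.7%, beside 0.93%). Leaving out AngII libraries 1, 3 and 6 changed the sham count and the interaction count at 50 mg too. A group left with a lone library was assumed to vary like the others. No paired analysis was possible because the replicate numbers 1 to 12 are not shared between groups. With 2 libraries per group, small changes at single doses are not detectable.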
